A study of Homo sapiens with 3 samples.

Results

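The TRiC/CCT chaperonin was described through the 9 genes that encode its subunits, TCP1, CCT2, CCT3, CCT4, CCT5, CCT6A, CCT6B, CCT7 and CCT8, in HEK-293T, an established line of transformed human embryonic kidney cells grown without stress. A probe set of the Affymetrix Human Genome U133 Plus 2.0 array was taken as a member where its listed gene symbols include one of these names, which gave 16 of the 54675 probe sets on the array. Of the 16 probe sets, 13 are listed for a single gene, and the 3 probe sets of TCP1 are all shared with SNORA29, a small nucleolar RNA whose gene lies within that of TCP1. A shared probe set is given below under its TCP1 name, but its signal cannot be divided between the listed genes.

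Total RNA of 3 cultures was measured, each on an array of its own. All cultures were grown in DMEM with heat-inactivated serum, and all cells carry, by the sample records, an inserted temperature-sensitive gene for the SV40 T antigen. Of the cultures harvested 48 h after seeding, the low-seeded one began with 375000 cells (RNA integrity number 9.6) and the high-seeded one with 750000 cells (10.0). The culture harvested 24 h after seeding began with 1000000 cells (9.5). The time of harvest, the number of cells seeded and any batch cannot be told apart in this design, and no heat-shocked cells are among these arrays.

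TRiC is a barrel of stacked rings in the cytosol, in which each subunit has a fixed place and occurs once in a ring. It encloses newly made proteins and folds them with energy from ATP, and actin and tubulin are its classical substrates. The zeta position is encoded by a pair of genes, CCT6A in most tissues and CCT6B mainly in the testis. Subunit genes have been described as targets of HSF1, the heat shock transcription factor that the study of these cells was concerned with.

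HSF1 binds heat shock elements, which are built of inverted GAA and TTC units. The letters GAANNTTC and TTCNNGAA, which read the same on both strands and may overlap by 3 bases, were looked for in windows of 250 bases before to 50 bases after the annotated gene starts (RefSeq, GRCh38.p14). Windows were found for 8 of the 9 genes, all but CCT6A. Those of TCP1, CCT2, CCT4 and CCT6B held a match, in 4 of 10 windows, since CCT2 and CCT4 have a pair of annotated starts each and only 1 window of each pair matched. Among all 35116 windows of this length, 6.77% held GAANNTTC, 7.74% held TTCNNGAA and 13.5% held at least 1 of them. The matches are printed 5′ to 3′ with their flanks, because they are where these promoters resemble the site of the factor under study, with the motif in capitals. The TCP1 stretch lies at chr6:159789816-159789843 (minus strand), with the motif beginning 231 bases before the start. The CCT2 stretch lies at chr12:69585790-69585817 (plus strand), 89 bases before the downstream start. The CCT4 stretch lies at chr2:61888607-61888628 (minus strand), with the motif following the first 38 bases of the transcript. The CCT6B stretch lies at chr17:34961680-34961707 (minus strand), 237 bases before the start. A match of letters is a description and no evidence of binding.
TCP1: cgtttgaggcGAAGGTTCaacctcttcc
CCT2: ccggagcgaaGAAATTTCtagtgtggga
CCT4: cggcgccgctTTCTGGAAggtt
CCT6B: acggttgtacTTCGCGAAtggagattct

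All 8 core subunits, those other than CCT6B, gave strong signals in the unstressed cells. The values are MAS5 signals, a linear intensity that the authors scaled to a common level on each array. In such bulk RNA, less RNA per cell and fewer expressing cells cannot be told apart. On the brightest probe set of each core gene the mean signal ran from 12806 to 26264, and the highest array exceeded the lowest by 1.02 to 1.21 times. Signals of different probe sets depend on their probes, so the subunits are not ranked by abundance here. To be called above background, a signal had to pass, on each array, the value below which 95% of 238 probe sets of genes used by other tissues lay. These thresholds were 117.0 and 137.0 on the low- and high-seeded 48 h arrays and 82.9 on the 24 h array. By this rule 15 of the 16 member probe sets were above background, against 36.8% of all probe sets on the array. The 8 member genes with a probe set of their own were above background, against 50.1% of all 19775 such genes, and so were the shared probe sets of TCP1.

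**Figure D1:**
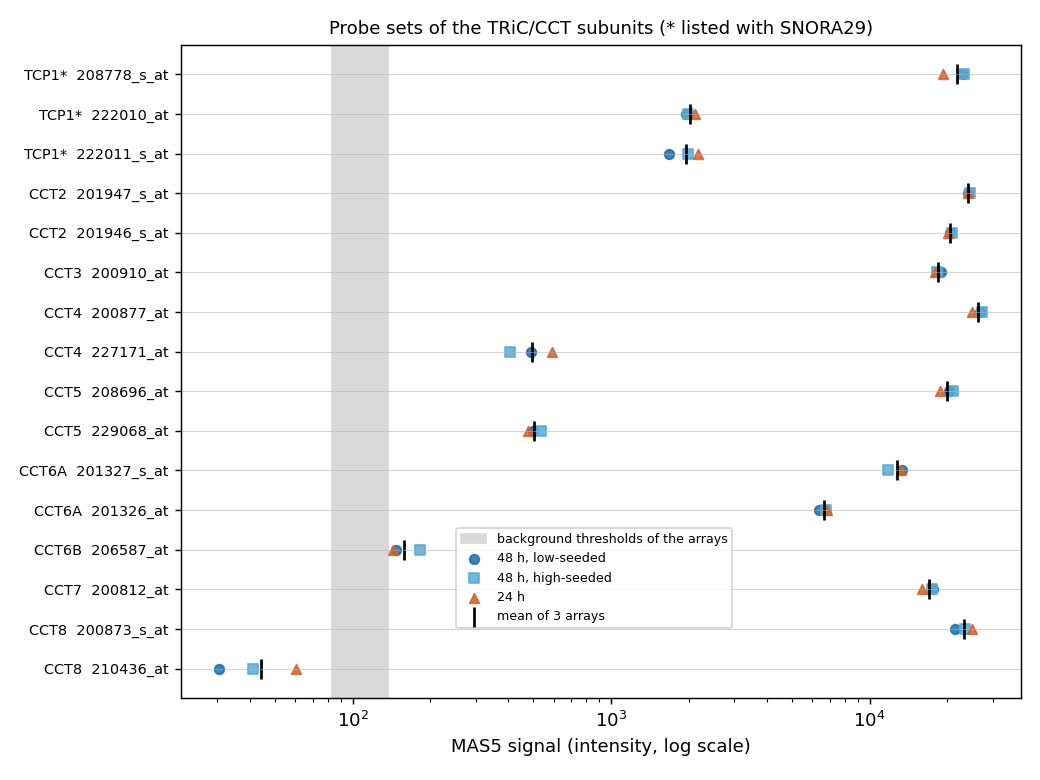
MAS5 signal (horizontal axis, intensity, log scale) of the 16 member probe sets in the low-seeded 48 h, the high-seeded 48 h and the 24 h culture; ticks are means of the 3 arrays and the grey area covers the thresholds from 82.9 to 137.0. The brightest probe set of each core gene lies at 11792 or above on every array, CCT6B lies just right of the grey area and 1 probe set of CCT8 left of it.

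The subunits that bind ATP most readily in yeast are the counterparts of TCP1, CCT2, CCT4 and CCT5. CCT4, the delta subunit, gave 26621 and 27295 (low- and high-seeded 48 h), against 24874 at 24 h, on its brighter probe set (200877_at). CCT2, the beta subunit, gave 23928 and 24395 at 48 h, against 24020 at 24 h (201947_s_at), with a coefficient of variation of 1.03%. Its other probe set (201946_s_at) gave 20406 and 20882 at 48 h, against 20130 at 24 h. The probe sets of CCT2 varied least of all members, with log2 SDs of 0.015 and 0.027, against a median of 0.15 over all probe sets above background and 0.084 over the 892 probe sets with a mean signal above 10000.

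CCT5, the epsilon subunit, whose mutations cause a hereditary sensory neuropathy, gave 20293 and 21061 (low- and high-seeded 48 h), against 18670 at 24 h (208696_at). The brightest probe set of TCP1, the alpha subunit (208778_s_at, shared with SNORA29), gave 23004 and 23167 at 48 h, against 19193 at 24 h. For both genes the 24 h array was the lowest. The same held on the brightest probe set of 5 of the 8 core genes, the exceptions being CCT2 and CCT8, lowest in the low-seeded 48 h culture, and CCT6A, lowest in the high-seeded one. Bright genes in general also tended to be lower at 24 h. Over the 518 genes tested with a mean signal above 10000, the median log2 difference, 48 h minus 24 h, was 0.071.

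The counterparts of CCT3, CCT6A and CCT8 bind ATP less readily in yeast. CCT3, the gamma subunit, gave 18881 and 18145 (low- and high-seeded 48 h), against 17924 at 24 h, on its only probe set (200910_at). CCT8, the theta subunit, gave 21440 and 23400 at 48 h, against 24784 at 24 h (200873_s_at). It was the only core gene whose brightest probe set was highest at 24 h. CCT6A, the zeta subunit of most tissues, gave 13374 and 11792 at 48 h, against 13253 at 24 h, on 201327_s_at. Its other probe set (201326_at) gave 6378 and 6769 at 48 h, against 6821 at 24 h. The high-seeded 48 h culture was thus the lowest on only the brighter probe set of CCT6A. CCT7, the eta subunit, gave 17651 and 17446 at 48 h, against 15981 at 24 h, on its only probe set (200812_at).

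Probe sets of the same gene differed widely in brightness, and not all ordered the arrays alike. CCT4 gave 491.9 and 404.6 (low- and high-seeded 48 h), against 592.2 at 24 h, on its dimmer probe set (227171_at). CCT5 gave 498.2 and 535.3 at 48 h, against 477.4 at 24 h, on 229068_at, where the 24 h array was again the lowest. TCP1 with SNORA29 gave 1957 and 1981 at 48 h, against 2108 at 24 h, on 222010_at. On 222011_s_at the pair gave 1675 and 1986 at 48 h, against 2164 at 24 h. On these dimmer probe sets of CCT4 and TCP1 the 24 h array was the highest, whereas on their brightest it was the lowest. CCT8 gave 30.5 and 41.4 at 48 h, against 60.6 at 24 h, on 210436_at, the only member probe set not above background, while its other probe set was at least 171 times the threshold on each array. Names ending in _s_at mark probe sets whose probes may match more than 1 transcript, as 6 of the 16 do. The probe sequences were not examined, and why probe sets of a gene differ was not tested.

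The balance of the subunits was examined within each probe set across the arrays, as the difference in log2(signal + 19.3) between cultures, where 19.3 is the median signal of the background probe sets. For the 7 core genes with a probe set of their own, the log2 difference of the 48 h cultures minus the 24 h culture had a median of 0.046 and ran from -0.15 for CCT8 to 0.15 for CCT5. Its sign is not settled, since it was -0.022 after quantile normalization and -0.0066 after scaling the arrays to equal medians, and its size rests on single arrays, with 0.022 without the low-seeded and 0.075 without the high-seeded 48 h array. For comparison with the core median of 0.046, the median was -0.0047 over the 10616 genes tested. Over the 518 of them with a mean signal above 10000 it was 0.071, above that of the core genes. The SD of the difference over the 7 core genes was 0.11, against 0.28 over the 10616 genes and 0.13 over the 518 bright ones. Between the high-seeded and the low-seeded 48 h cultures the 7 genes had a median of 0.028 and an SD of 0.098, with CCT6A at -0.18 and CCT8 at 0.13 as the extremes. The spread among the subunits was thus near that of other bright genes, and this likeness was not tested. With TCP1 added through its brightest shared probe set, a choice made after seeing the data, the SD of the 48 h minus 24 h differences was 0.13.

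**Figure D2:**
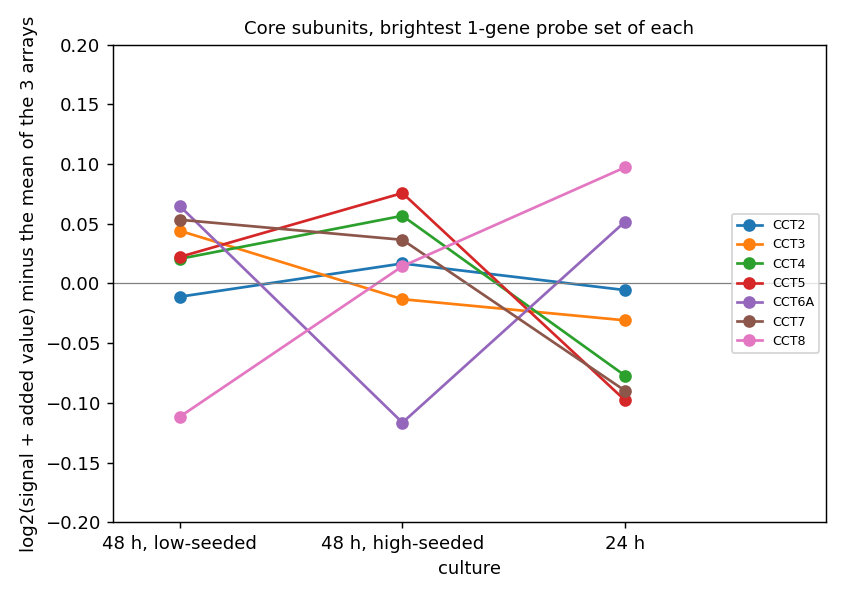
Log2(signal + 19.3) of the 7 core subunits with a probe set of their own, as the difference from the mean of each gene over the 3 arrays (vertical axis), in the low-seeded 48 h, the high-seeded 48 h and the 24 h culture (horizontal axis); points are single arrays and lines join the points of a gene. All points lie between -0.12 and 0.10, with CCT3, CCT4, CCT5 and CCT7 lowest at 24 h and CCT8 highest there.

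Whether any subunit differed between the 48 h cultures and the 24 h culture was tested with limma on the same log2 values. None of the 15 member probe sets tested passed an adjusted p under 0.05, and 1 of them, that of TCP1 on 208778_s_at, reached an unadjusted p under 0.05. That count was 0 after scaling to equal medians and in limma without the trend, and 2 after quantile normalization. Over all 22238 probe sets tested, 69 were called (0.31%), and 2105 (9.47%) reached an unadjusted p under 0.05. The fit leaves 1 residual degree of freedom, its error is borrowed from the other probe sets, and the single 24 h array is taken to vary as the 48 h arrays do. A p that misses the threshold here does not show that the subunits were equal.

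The probe set 208778_s_at of TCP1 had a log2 difference of 0.27 (48 h minus 24 h, standard error 0.094, limma, adjusted p = 0.336). The other probe sets of TCP1 differed the opposite way, with -0.24 (standard error 0.13, adjusted p = 0.595) on 222011_s_at and -0.098 (standard error 0.12, adjusted p = 0.874) on 222010_at. CCT5 had a log2 difference of 0.15 (adjusted p = 0.680) on its brighter and 0.11 (adjusted p = 0.936) on its dimmer probe set. CCT7 had 0.13 (adjusted p = 0.711), CCT3 0.046 (adjusted p = 0.936) and CCT8 -0.15 (adjusted p = 0.697). For CCT4 the values were 0.12 (adjusted p = 0.768) on the bright and -0.39 (standard error 0.23, adjusted p = 0.646) on the dim probe set. CCT2, with 0.0084 and 0.036, and CCT6A, with -0.078 and -0.054, lay nearer to 0 than their standard errors of 0.094 to 0.10.

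In 13 of the 15 member probe sets tested both 48 h arrays lay on 1 side of the 24 h array, 8 with higher and 5 with lower signals at 48 h, against 70.5% of all probe sets tested. The exceptions were 201947_s_at of CCT2 and 201327_s_at of CCT6A. With a single 24 h array, a separation of this kind carries no estimate of error.

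**Figure D3:**
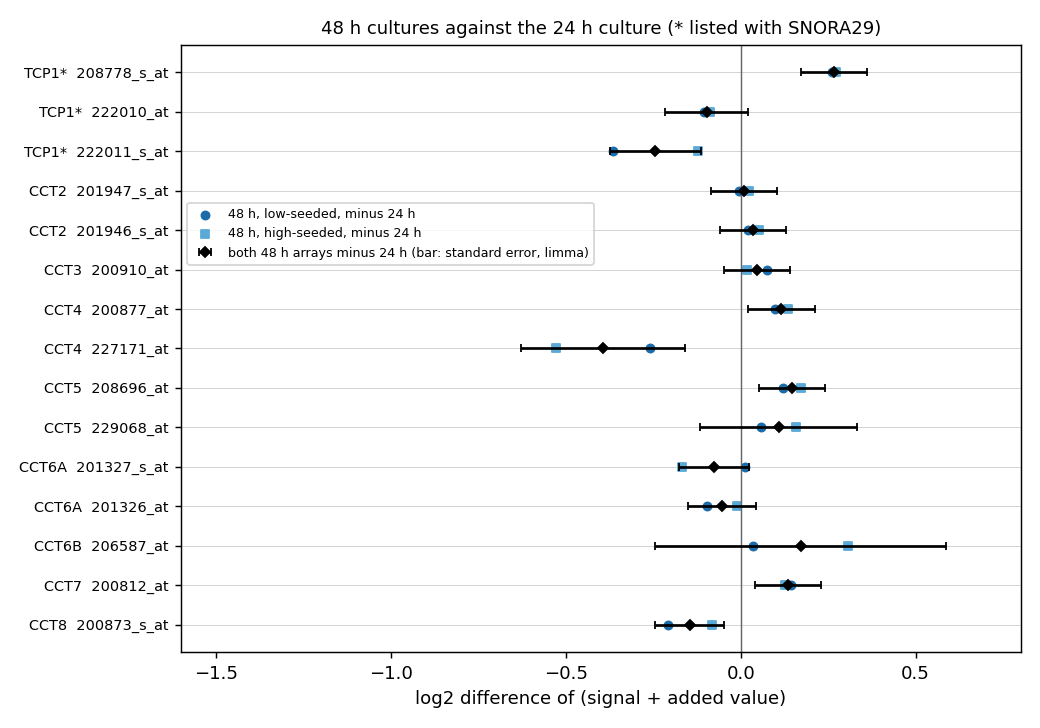
Log2 difference of the 48 h cultures minus the 24 h culture (horizontal axis) for the 15 member probe sets tested; diamonds are the difference of both 48 h arrays with its standard error from limma, and the other symbols set each 48 h array against the 24 h array. The dim probe set of CCT4 reaches -0.53 in the high-seeded 48 h culture, and CCT6B has the widest error, 0.42.

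CCT6B, the testis paralog, lay close to the background of the arrays. Its only probe set (206587_at) gave 147.3 and 181.7 (low- and high-seeded 48 h), against 143.2 at 24 h, with a mean of 157.4 ± 21.1 (SD, n = 3 arrays). This was 1.26 to 1.73 times the threshold of the same array, with the widest margin at 24 h, where the threshold was lowest. CCT6A was at least 49.4 times the threshold on each of its probe sets. With the 99th percentile of the background probe sets as threshold, at 264.0 to 315.1, CCT6B was not above background, while with receptor genes alone as background it was 1.16 to 1.41 times the threshold. Of the 238 background probe sets themselves, 5 were above background by the same rule. The log2 difference of CCT6B between the 48 h cultures and the 24 h culture was 0.17, with a standard error of 0.42 (limma, adjusted p = 0.948). It was 0.31 without the low-seeded and 0.036 without the high-seeded 48 h array.

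None of 11 male germ cell markers was above background, on 19 probe sets. DDX4, an RNA helicase of germ cells, gave 29.2 and 7.16 (low- and high-seeded 48 h), against 6.84 at 24 h. The protamine PRM2, which packs sperm DNA, gave 4.82 and 9.50 at 48 h, against 8.71 at 24 h. The summed signal of the brightest probe sets of the 11 markers was 523.7 and 595.0 at 48 h, against 384.4 at 24 h. It was highest on the high-seeded 48 h array, as was the median of the background probe sets, 18.0 and 23.6 at 48 h, against 16.2 at 24 h. ODF1, a protein of the sperm tail, gave 122.8 and 122.1 at 48 h, against 68.1 at 24 h, and passed the threshold on the low-seeded 48 h array only. Of 6 further testis paralogs of widely used genes, PGK2, PDHA2, GAPDHS, ACTL7A and ACTL7B were not above background. LDHC, the lactate dehydrogenase of sperm, was above background, with 396.0 and 378.6 at 48 h, against 465.4 at 24 h. Whether the probes of CCT6B also bind CCT6A or other RNA, and those of LDHC other transcripts, was not tested.

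**Figure D4:**
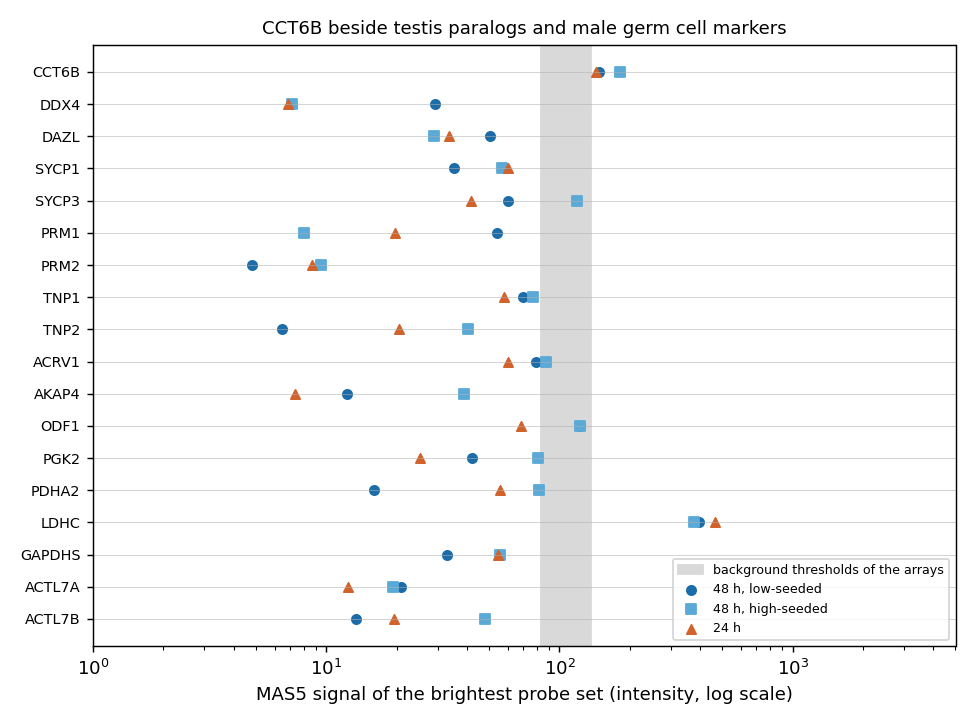
MAS5 signal (horizontal axis, intensity, log scale) of the brightest probe set of CCT6B, of 11 male germ cell markers and of 6 testis paralogs of widely used genes in the 3 cultures; the grey area covers the thresholds from 82.9 to 137.0. CCT6B at 143.2 to 181.7 and LDHC at 378.6 to 465.4 lie right of the grey area on every array.

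The factors that work with TRiC were measured on the same arrays. Prefoldin, a complex that hands unfolded actin and tubulin to TRiC, has 6 subunit genes, of which 5 have probe sets of their own and all 5 were above background. VBP1, a prefoldin subunit that binds the VHL protein, gave 17116 and 16691 (low- and high-seeded 48 h), against 15965 at 24 h. PFDN5, another of its subunits, gave 10278 and 10091 at 48 h, against 9903 at 24 h. Neither passed the test, with log2 differences of 0.082 and 0.040. PFDN4 lay the other way, with 4757 and 4500 at 48 h, against 5456 at 24 h. Its log2 difference of -0.24 was the largest among the brightest probe sets of the 5 genes. No prefoldin gene was called between the harvest times (1 of 7 probe sets tested reached an unadjusted p under 0.05). The median log2 difference was 0.082, against -0.0048 over all probe sets tested and 0.071 over the 518 genes with a mean signal above 10000. Of the 5 prefoldin genes only VBP1 and PFDN5 had a mean signal that high, so these sets are unlike.

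The phosducin-like proteins bind TRiC and adjust its folding cycle. PDCL, which serves the folding of G protein beta subunits, gave 753.2 and 869.6 (low- and high-seeded 48 h), against 672.3 at 24 h. TXNDC9 gave 3507 and 3194 at 48 h, against 3762 at 24 h. PDCL2, a testis member of the family, gave 3.13 and 5.16 at 48 h, against 12.0 at 24 h, and was not above background. Of the chaperonin-like genes, MKKS, BBS10 and BBS12, which help to assemble the BBSome of the cilium, were above background. MKKS gave 2918 and 2788 at 48 h, against 2827 at 24 h, and BBS12 gave 473.8 and 515.1 at 48 h, against 532.1 at 24 h. CCT8L2, at 5.72 and 51.1 at 48 h, against 4.97 at 24 h, was not above background. The mitochondrial chaperonin HSPD1, a relative of TRiC with a single kind of subunit, gave 37088 and 39196 at 48 h, against 36348 at 24 h. Its lid HSPE1 gave 19646 and 18657 at 48 h, against 20072 at 24 h. None of the genes tested in these lists was called. The median log2 difference of the phosducin-like genes, 0.047, rests on 2 genes that lay opposite ways, PDCL at 0.26 and TXNDC9 at -0.17. That of the 3 chaperonin-like genes tested was -0.034.

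The tubulin folding cofactors, which take tubulin over from TRiC, were above background for all 6 genes. TBCA gave 17214 and 16896 (low- and high-seeded 48 h), against 17796 at 24 h, and TBCE gave 4837 and 4947 at 48 h, against 5039 at 24 h. Of 13 known TRiC substrates, 12 have probe sets of their own and all 12 were above background. TUBA1B, an alpha tubulin, gave 36475 and 38960 at 48 h, against 34977 at 24 h. ACTB, the cytoplasmic beta actin, gave 34205 and 33052 at 48 h, against 30689 at 24 h. CDC20, an activator of the anaphase-promoting complex that TRiC folds, had a log2 difference of 0.25 on its only probe set and was not called. On the brightest probe set of each substrate, the lowest difference was -0.22 for CCNE1, a cyclin of the start of S phase. The highest was 0.27 for HDAC3, a histone deacetylase. The differences of VHL, PLK1 and FZR1 on these probe sets were below 0 as well. Of the 31 probe sets of the substrates tested, 6 reached an unadjusted p under 0.05 in limma, against 9.47% of all probe sets tested. These 31 belong to only 12 genes, and probe sets of the same gene are no separate observations. None of the 12 substrates and none of the 6 tubulin cofactors was called, with median log2 differences of 0.091 and -0.044.

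The median profile of the core subunits, centred on the mean of each gene, was 0.022 and 0.017 (low- and high-seeded 48 h), against -0.031 at 24 h. By Euclidean distance over these 3 values, the closest of 9889 other genes above background were RITA1, NEFL, MRPL40, SKA2 and SNX13, at 0.0048 to 0.0055. The core subunits themselves lay at 0.037 (CCT3) to 0.19 (CCT8) from their own median profile, and 50.5% of the other genes lay nearer than CCT8. Over 3 arrays such likeness is a description only.

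Across probe sets above background, which are no independent samples, log2 signals correlated at 0.984 to 0.987 between pairs of arrays. The median gap of a probe set from one array to another was 0.15 to 0.18 (log2) above background and 0.92 to 1.00 below it. Of 8 kidney progenitor markers, 5 were above background on at least 1 probe set (PAX8, WT1, SIX2, EYA1 and SALL1), against 50.1% of all genes. PAX2, LHX1 and OSR1 were not. Of the 20 probe sets of these 8 markers, 7 were above background, against 36.8% of all probe sets, and for PAX8 it was 1 of 8. Of 8 measured markers of the mature kidney LRP2 alone was above background, of 4 fibroblast markers COL1A1 alone, and of 3 leukocyte markers none.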

How the data were processed

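Total RNA of 3 HEK-293T cultures was hybridised by the authors, 1 culture an array. They deposited the MAS5 signal of each probe set, a linear intensity, for which the submitters' processing notes name GCOS 1.0. After trimming 2% of probe sets at each end all arrays had a mean of 500.1, so a change common to all RNA would not be seen. Precision is limited by the number of arrays. The methods' absent/present calls were not used here.

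Probe sets were named through the platform annotation, with symbols updated by gene ID to GRCh38.p14. The background probe sets (238) comprised 155 for receptors of smell and bitter taste, the others being for genes restricted to further tissues. The 48 h cultures were compared with the 24 h culture by limma 3.58.1 (R 4.3.3) with a mean-variance trend and Benjamini-Hochberg adjustment over 22238 probe sets whose mean log2 signal exceeded the mean threshold (112.3). Adding 19.3 before the log2 understates changes of low signals. The fit was also run on simulated data, with results that are not reported here. Since no source states that the cultures came from separate passages, p-values cover only the spread between these samples, which may be technical.

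Members and lists were chosen with earlier results of these data known. Named genes were every member, list members called, otherwise the brightest of a list and those not above background, and the 5 genes of closest pattern. PFDN4, CDC20, CCNE1, HDAC3, BBS10 and single examples of a list were chosen after their values were seen. Alternatives were other thresholds, references, added values, scalings and filters, no trend, other probe sets and each array left out.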

Additional observations from a re-analysis of the deposited data

How the results depend on the processing

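Low signals and the number of arrays limit these results: CCT6B lies close to the background, below which the arrays differed most, and the lone 24 h array has no replicate. The count of member probe sets above background was 15 of 16, with 14 of 16 at the 99th percentile, where that of CCT6B was lost, which left 0 for this gene, and 9 of 10 without probe sets marked as sharing sequence. It was 15 of 16 with the 90th percentile, receptors alone as background, 2 of 3 arrays sufficing, quantile normalization and any array left out. No member probe set was called under any alternative that had a test. The calls over all probe sets fell to 12 after scaling to equal medians and to 0 in limma without the trend (1352 at an unadjusted p under 0.05), against 69. The core median of 0.046 was -0.022 after quantile normalization, -0.0066 after scaling to equal medians, 0.022 with the mean over the probe sets of a gene, 0.12 without probe sets that share sequence and 0.022 to 0.075 with a 48 h array left out. The spread over core subunits of 0.112 was 0.117 with the mean over the probe sets of a gene. It was 0.120 to 0.124 with a 48 h array left out and 0.1325 with TCP1 (added after seeing the data). Without probe sets that share sequence, the median of 0.12 and a spread of 0.0833 cover only 5 core genes. CCT2 and CCT8, the lowest of the core genes, then had no value, and CCT6A was taken from 201326_at. Of 120 member values under the alternatives, 8 had the opposite sign, on 4 probe sets. Leaving out the filter or the trend does not alter a log2 difference, so those values could not change sign. After quantile normalization, the CCT2 probe sets were at -0.044 (201947_s_at) and -0.0015 (201946_s_at) and CCT3 at -0.022. After scaling to equal medians, they were at -0.045 and -0.017 and CCT3 at -0.0066. With a 48 h array left out, 201947_s_at of CCT2 ran from -0.0055 to 0.022 and 201327_s_at of CCT6A from -0.17 to 0.013, the low end of CCT2 and the high end of CCT6A being without the high-seeded array. With a 48 h array left out no spread remains among the arrays, so those are values with no test, and the 24 h array cannot be left out of the comparison. No paired analysis was possible because the labels number no replicates and there is a single 24 h array, with no stated tie to either 48 h array. The causes of these differences were not tested.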

Other observations

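The probe set 227301_at is listed for CCT6P1 and CCT6P3, which are transcribed pseudogenes of the CCT6 family, and was not counted among the members. It gave 204.7 and 409.9 (low- and high-seeded 48 h), against 481.5 at 24 h, with a mean of 365.4 ± 143.7 (SD, n = 3 arrays). All arrays were above their thresholds. It was lowest in the low-seeded 48 h culture, while the highest array of CCT6A exceeded the lowest by 1.13 times on its brighter and 1.07 times on its dimmer probe set. Its signal cannot be divided between the listed pseudogenes, and whether it includes CCT6A was not tested.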
